A study of Homo sapiens with 7 samples.

Results

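The 38 genes described here encode the core switches of the human cell cycle: cyclins, cyclin-dependent kinases (CDKs), CDK inhibitors, the kinases and phosphatases that act on CDKs, the E2F transcription factors with their DP partners and pocket proteins, and 2 ubiquitin ligase parts. They were chosen by symbol from 36337 gene names on the array, and all 38 were found, as 49 probes on 121 spots. The rule of choice used symbols and no measured value, but earlier results of these data were known when the genes were chosen. 36 of the 38 genes were well above background on each of 4 arrays (94.7%), against 52.5% of all gene names on the array.

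HCT116 is a near-diploid human colon carcinoma line. The cultures carried its H2B-GFP derivative, in which the histone H2B is fused to the green fluorescent protein, and all were exposed to 10 nM bafilomycin A1, an inhibitor of the vacuolar proton pump, for 30 h in DMEM with 10% FBS. Each of 4 biological replicates gave 100 ng of total RNA, labelled with Cy3 and hybridized to its own Agilent array, and the 4 arrays lay on 1 slide. The study set these cells against 3 untreated samples of the H2B-GFP line, which were not analysed here, so every value below is a level in treated cells or a difference between replicate cultures. No fold change against untreated cells was computed.

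D-type cyclins with CDK4 or CDK6, and then cyclin E with CDK2, phosphorylate the retinoblastoma protein and its relatives, the pocket proteins, which releases E2F factors to switch on genes for DNA replication. Cyclin A with CDK2 drives S phase, and cyclin B with CDK1 drives entry into mitosis, where WEE1 and PKMYT1 hold CDK1 inactive and CDC25 phosphatases release it. In resting cells the repressor factors E2F4 and E2F5, mostly with the pocket protein RBL2, sit on many of these same promoters. They do so at E2F sites and at a second element, the CHR, which marks promoters of late cell cycle genes.

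The promoter letters that this circuit reads are shown first, because several of the genes measured here are themselves E2F targets. RefSeq promoters (GRCh38.p14, 250 bases before to 50 after each start) were held for 29 of the 38 genes, as 47 promoters. Both strands were searched for TTTCGCGC, TTTGGCGC and TTTCCCGC, 3 spellings of the E2F site that exclude each other at 1 position on a strand. They were present in 7 of the 29 genes (24.1%), against 3.30% of 27305 genes in the table, and in 17.0% of these genes' promoters against 2.74% of all 35116 promoters. The windows below are 28 bases long with the E2F letters in capitals, read along the gene, and the last 2 carry them in the reverse direction. Both windows of RBL1 are shown since its 2 sites lie side by side and overlap in the printed bases.
E2F1, chr20:33686388-33686415, minus strand, site 20 bases before the start: gcaaaaaggaTTTGGCGCgtaaaagtgg
E2F2, chr1:23531258-23531285, minus strand, site 42 bases before the start: cggcacgacgTTTGGCGCtaaaaaaaaa
CDC25A, chr3:48188444-48188471, minus strand, site 44 bases before the start: gtggattccgTTTGGCGCcaactaggaa
RBL1, chr20:37095996-37096023, minus strand, site 16 bases before the start: tttcgcgcgcTTTGGCGCaggtggttgt
RBL1, chr20:37096006-37096033, minus strand, site 26 bases before the start: agctgcagatTTTCGCGCgctttggcgc
CDK1, chr10:60778340-60778367, plus strand, site 128 bases before 1 start and 19 after another: ttcctctttcTTTCGCGCtctagccacc
E2F3, chr6:20401816-20401843, plus strand, site 53 bases before the start: tgaaaagccgGCGGGAAAtccgagtttc
TFDP1, chr13:113584623-113584650, plus strand, site 120 bases before the start: ggcgccgaagGCGCGAAAaggcgcgcag

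All 3 activator E2F genes held the letters, as did 1 pocket protein, 1 DP partner, 1 CDC25 phosphatase and CDK1. The CHR letters TTTGAA were found in another set of 7 of the 29 genes (24.1%, against 18.2% of genes in the table), which shared CDK1 and E2F3 with the first. CCAAT, which often stands upstream of a CHR, was found in 17 of the 29 (58.6%, against 39.7%). For 3 genes of the G2 and M phases, 1 CHR window each is printed with the CHR in capitals. CDK1 had further matches that are not printed, 161 and 69 bases before a start and, in the reverse direction, 9 after one. A match to such short letters is a description of the sequence and not evidence of binding.
CCNB2, chr15:59105106-59105133, plus strand, 29 bases before the start: gcgacgcggtaTTTGAAtcctggaacaa
CDK1, chr10:60778454-60778481, plus strand, 13 bases before the start: agcgcggtgagTTTGAAactgctcgcac
CDC25C, chr5:138331818-138331845, minus strand, 30 bases before 1 start and 43 after another: ctggcggaaggTTTGAAtggtcaacgcc

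Levels are given below as log2 of the background-subtracted signal minus the median of the array, taken as the median where a gene had several probes, in the order replicate 1, 2, 3 and 4. A value of 0 is the median of the probes with a signal above 0 on that array. It lies above the middle of all probes, since 14.8% to 17.4% of spots were at or below 0. Probes differ in how brightly they light for the same RNA, so levels are compared between arrays and never between genes. A span is the ratio of the highest to the lowest of the 4 arrays, and 1.4-fold is the size of change that the study's methods used. Over the 36 detected genes the SD between arrays had a median of 0.21, the same as the 0.21 over all 19083 detected genes, and ran from 0.08 for TFDP2 to 0.68 for CDKN2B. 16 of the 36 spanned more than 1.4-fold (44.4%, against 46.4% of all detected genes), and 4 spanned more than 2-fold (11.1%, against 12.6%). Both shares lay close to those of detected genes in general.

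**Figure D1:**
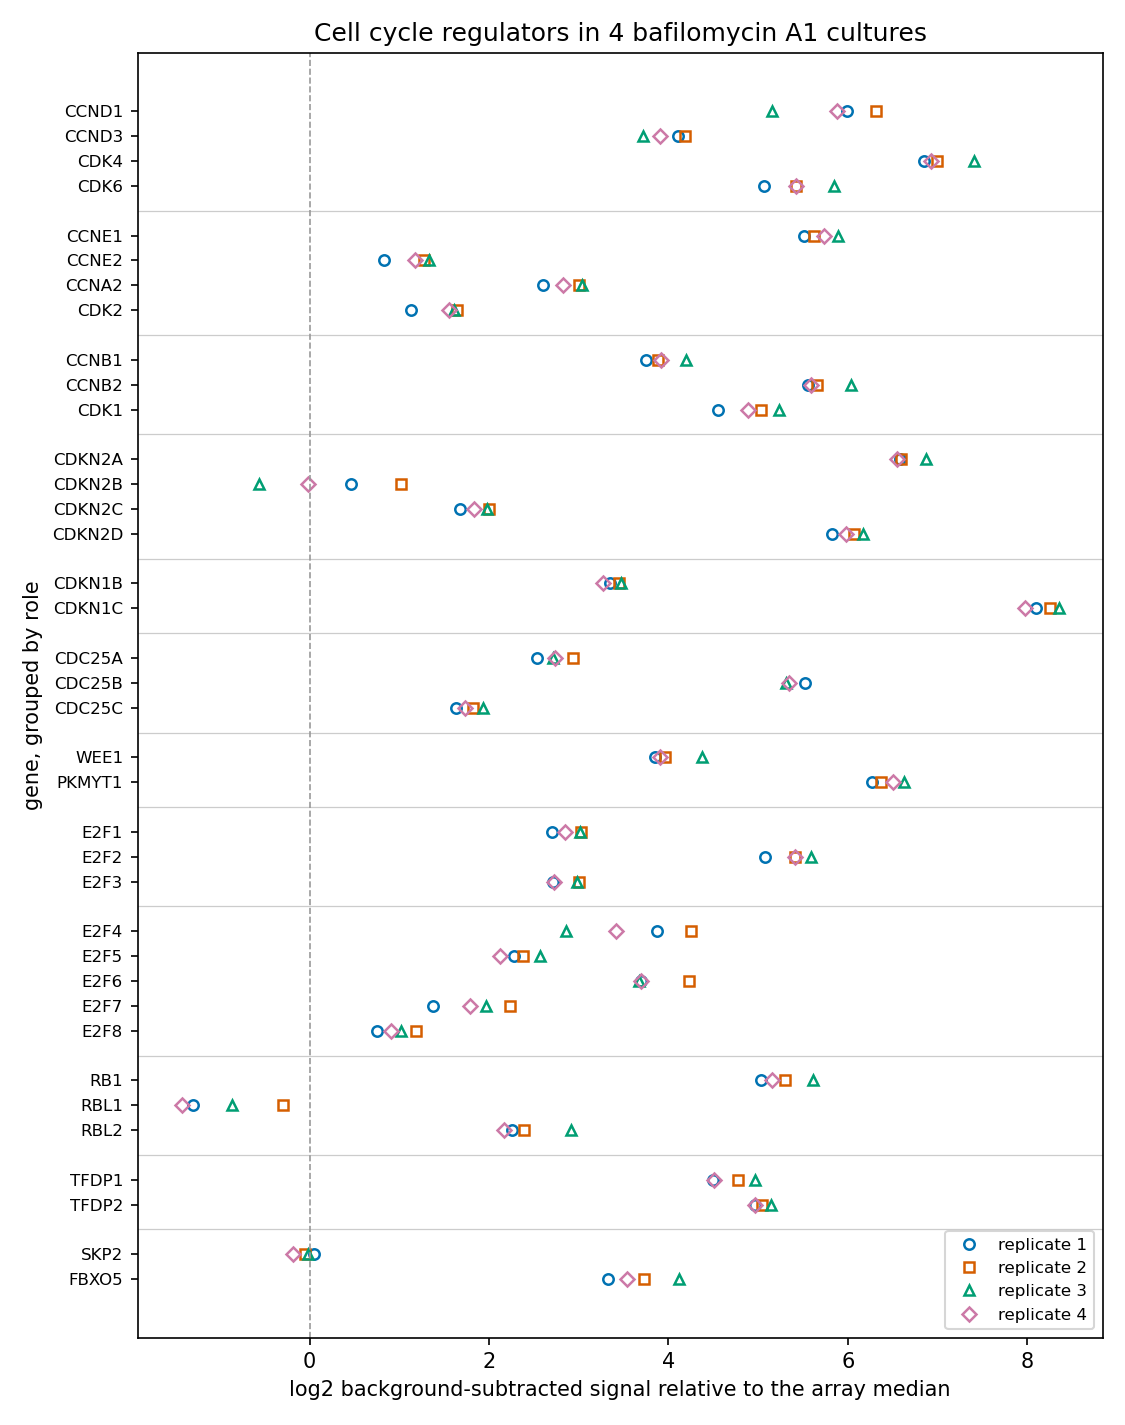
Level of each of the 36 detected genes and of CDC25B (y axis, grouped by role) on each of 4 arrays (x axis, log2 background-subtracted signal relative to the array median, 1 symbol per replicate). Most genes sit within a narrow band, while CCND1, CDKN2B and E2F4 show replicate 3 (triangle) far to the left of the others, and RBL1, E2F6 and E2F7 show replicate 2 (square) to the right.

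The D-type cyclins and their kinases open the cycle. CCND1, the cyclin that growth signals induce, gave 5.99, 6.31, 5.16 and 5.88, with a mean of 5.83 ± 0.49 (SD, n = 4) and a span of 2.23-fold. Replicate 3 was the lowest and replicate 2 the highest. CCND3, a second D-type cyclin, gave 4.10, 4.19, 3.72 and 3.91 (3.98 ± 0.21, SD, n = 4), again with replicate 3 lowest. The kinases ran the other way. CDK4 gave 6.85, 6.99, 7.40 and 6.93 (7.04 ± 0.25, SD, n = 4), and CDK6 gave 5.06, 5.42, 5.85 and 5.42 (5.44 ± 0.32, SD, n = 4), both with replicate 3 highest and replicate 1 lowest. These orders, replicate 3 lowest for both cyclins and highest for both kinases, were the same under each of 8 settings that kept all 4 arrays. Each of these genes had 1 probe, so settings that only limit the probes could not alter the orders.

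CCND2, the remaining D-type cyclin, was well above background on no array. Its single probe gave a background-subtracted signal of 1.16 on replicate 1 and 2.43 on replicate 2, and signals below 0 on replicates 3 and 4. The software's p-value against background was 0.483, 0.141, 0.908 and 0.566, where the dimmest probe well above background on an array had a signal between 20.8 and 22.3. With 1 probe of 1 spot, CCND2 RNA was not detectable here, which is a bound on this probe and not a statement that the gene was silent.

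The cyclins of the G1 to S transition and of S phase shared 1 feature, the lowest value on replicate 1. CCNE1, the E-type cyclin that activates CDK2 late in G1, gave 5.51, 5.63, 5.89 and 5.73 (5.69 ± 0.16, SD, n = 4). CCNE2, its close relative, gave 0.83, 1.28, 1.33 and 1.18 (1.15 ± 0.22, SD, n = 4). Replicates 2, 3 and 4 of CCNE2 lay close together, with replicate 1 below them. CCNA2, the cyclin of S and G2 phase, gave 2.60, 3.01, 3.03 and 2.82 (2.87 ± 0.20, SD, n = 4). CDK2, the kinase they share, gave 1.13, 1.64, 1.61 and 1.56 (1.49 ± 0.24, SD, n = 4). Replicate 1 of CDK2 passed Dixon's 95% critical value for 1 of 4 values lying apart, a mark that 8.48% of all detected genes carried and that 3 of the 36 regulators carried (8.33%). Without replicate 1 the SD of CDK2 was 0.04.

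The mitotic cyclins and CDK1 moved together between the arrays. CCNB1, which with CDK1 forms the kinase that starts mitosis, gave 3.75, 3.89, 4.20 and 3.92 (3.94 ± 0.19, SD, n = 4). CCNB2 gave 5.56, 5.65, 6.04 and 5.58 (5.71 ± 0.22, SD, n = 4). CDK1 gave 4.56, 5.03, 5.23 and 4.89 (4.93 ± 0.28, SD, n = 4), a span of 1.59-fold. All 3 were lowest on replicate 1 and highest on replicate 3, and CCNB1 kept both places under each of the 8 settings. CCNB2 was lowest on replicate 2 under 2 of them. CDK1 was highest on replicate 4 under 2, with processed signals and after normexp and quantile normalization. Under those 2 its value also took in a second probe that was well above background on no array. As reported, that probe had signals below 0 and was left out. As a group the 3 genes deviated from their 4-array mean by -0.24, 0.00, 0.30 and -0.06.

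The INK4 inhibitors bind CDK4 and CDK6 and keep D-type cyclins out. CDKN2A, which encodes p16 and, in another frame, ARF, gave 6.58, 6.59, 6.88 and 6.54 (6.65 ± 0.15, SD, n = 4), and replicate 3 stood apart from the other 3. Its 2 probes both had replicate 3 highest, at 8.01 against 7.57 to 7.69 and at 5.74 against 5.48 to 5.51. CDKN2B, which encodes p15, gave 0.46, 1.02, -0.56 and -0.01 (0.23 ± 0.68, SD, n = 4), a span of 3.00-fold and the largest SD of the 36 genes. All 4 arrays of CDKN2B were well above background, with signals of 106, 142, 47.5 and 62.9 on a linear scale. The neighbouring genes CDKN2A and CDKN2B thus differed in the place of replicate 3, which was highest for CDKN2A and lowest for CDKN2B. Both places held under each of the 8 settings. As reported, the other arrays ran in the same order in both genes, but those of CDKN2A lay close together, at 6.54 to 6.59. The lowest array of CDKN2A was replicate 4 under 4 of the 8 settings, replicate 1 under 2 and replicate 2 under 2. CDKN2B rests on 1 probe of 1 spot, and its SD fell to 0.34 after normexp and quantile normalization. CDKN2C gave 1.68, 2.00, 1.98 and 1.83 and CDKN2D gave 5.82, 6.07, 6.17 and 5.97, both with an SD of 0.15 over 4 arrays.

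The CIP/KIP inhibitors act on cyclin E, A and B kinases. CDKN1B, which encodes p27, gave 3.34, 3.45, 3.47 and 3.27 (3.38 ± 0.09, SD, n = 4), the second smallest SD of the 36 genes. This even level was the mean of 2 probes that ran against each other. The probe at chr12:12871119-12871178 (GRCh37, plus strand) gave 3.07, 3.05, 2.76 and 2.96, and the probe at chr12:12874940-12874999, printed as 10 spots, gave 3.62, 3.86, 4.18 and 3.58. The first was lowest on replicate 3 and the second highest there. CDKN1C, which encodes p57, gave 8.10, 8.26, 8.35 and 7.98 (8.17 ± 0.16, SD, n = 4).

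Phosphatases and kinases set the phosphorylation of CDKs. CDC25A, which acts at the start of S phase, gave 2.53, 2.94, 2.72 and 2.74 (2.73 ± 0.17, SD, n = 4), and CDC25C, which acts at mitosis, gave 1.63, 1.83, 1.94 and 1.74 (1.78 ± 0.13, SD, n = 4). CDC25B, the remaining phosphatase, had 1 spot, which the software marked as outlying on replicate 2. Its other arrays gave 5.53, 5.30 and 5.34, and it was the 1 gene besides CCND2 not counted as detected on all 4. WEE1 gave 3.85, 3.97, 4.37 and 3.91 (4.03 ± 0.23, SD, n = 4) and PKMYT1 gave 6.27, 6.37, 6.63 and 6.51 (6.44 ± 0.16, SD, n = 4). Both inhibitory kinases were highest on replicate 3 and lowest on replicate 1, and WEE1 spanned 1.43-fold.

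The activator E2Fs, which switch on S phase genes when the pocket proteins let go, each had E2F letters in a promoter, as printed above. E2F1 gave 2.70, 3.03, 3.01 and 2.85 (2.90 ± 0.15, SD, n = 4). E2F2 gave 5.07, 5.41, 5.59 and 5.41 (5.37 ± 0.22, SD, n = 4), and E2F3 gave 2.71, 3.00, 2.99 and 2.72 (2.86 ± 0.16, SD, n = 4). All 3 were lowest on replicate 1, and this held under each of the 8 settings, although replicate 4 of E2F3 was almost level with it. E2F2 alone of the 3 spanned more than 1.4-fold, at 1.43-fold. The 2 probes of E2F3 differed in order, with 5.20, 5.68, 5.96 and 5.43 for the one and 0.22, 0.33, 0.01 and 0.01 for the other, so that replicate 3 was highest by the first and shared the lowest value by the second.

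The repressor E2Fs act against the activators. E2F4, the main E2F of resting cells, gave 3.87, 4.25, 2.86 and 3.42 (3.60 ± 0.60, SD, n = 4), a span of 2.63-fold. Its only probe covers 60 bases of RNA drawn from 280 bases of genome at chr16:67231510-67231789 (GRCh37, plus strand), so it crosses a splice junction. The probe is printed with G and C in capitals, since base composition is taken up below.
E2F4 probe: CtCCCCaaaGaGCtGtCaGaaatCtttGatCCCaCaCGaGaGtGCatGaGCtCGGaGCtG

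Replicate 3 of E2F4 was the lowest and replicate 2 the highest under each of the 8 settings, and the SD was 0.42 without replicate 3. E2F5, the second E2F that pairs with RBL1 and RBL2, gave 2.28, 2.38, 2.57 and 2.13 (2.34 ± 0.19, SD, n = 4) and was highest where E2F4 was lowest. Replicate 3 of E2F5 was highest under 7 of the 8 settings. With the trend on G and C content described below taken off, replicate 1 was highest. E2F6, a repressor that needs no pocket protein, gave 3.69, 4.23, 3.68 and 3.70 (3.82 ± 0.27, SD, n = 4). Replicate 2 of E2F6 stood apart, and without it the SD was 0.01. That value is the middle one of 3 probes, and by another of them, with 5.75, 5.95, 6.18 and 5.79, replicate 3 was the highest.

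E2F7 and E2F8, which repress late in S phase and bind without a DP partner, were lowest on replicate 1. E2F7 gave 1.38, 2.23, 1.96 and 1.79 (1.84 ± 0.36, SD, n = 4), a span of 1.81-fold. Both of its probes had replicate 1 lowest, at 3.93 against 4.40 to 4.80 and at -1.17 against -0.87 to -0.05. The first probe was highest on replicate 3, at 4.80, and the second, dimmer one on replicate 2, at -0.05. E2F8 gave 0.75, 1.19, 1.02 and 0.91 (0.97 ± 0.18, SD, n = 4). 4 of the 5 repressor E2Fs, all but E2F5, were highest on replicate 2, against 25.3% of all detected genes. For E2F6 and E2F7 this place depended on the probe, since each also had a probe that was highest on replicate 3. The mean of the 5 repressor E2Fs deviated by -0.12, 0.34, -0.10 and -0.13.

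The pocket proteins hold E2Fs in check. RB1, the retinoblastoma protein, gave 5.03, 5.30, 5.61 and 5.15 (5.27 ± 0.25, SD, n = 4), with replicate 3 highest and replicate 1 lowest under each of the 8 settings. RBL2, which encodes p130, gave 2.25, 2.39, 2.91 and 2.17 (2.43 ± 0.33, SD, n = 4), a span of 1.68-fold, also with replicate 3 highest. RBL1, which encodes p107 and carries the pair of E2F sites printed above, gave -1.30, -0.29, -0.86 and -1.43 (-0.97 ± 0.51, SD, n = 4), a span of 2.19-fold with replicate 2 highest. The RBL1 value is the mean of 2 probes, of which 1 was well above background on no array. The detected probe, at chr20:35627197-35627256 (GRCh37, minus strand), gave 0.78, 1.94, 1.13 and 0.96 with the same SD of 0.51, and it too had replicate 2 highest. The SD of RBL1 was 0.18 after normexp and quantile normalization and 0.30 without replicate 2, while replicate 2 was highest under each of the 8 settings.
RBL1 detected probe: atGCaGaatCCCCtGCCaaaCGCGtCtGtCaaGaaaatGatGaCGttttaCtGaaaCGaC

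The DP partners, with which most E2Fs bind DNA, gave 4.49, 4.77, 4.97 and 4.51 for TFDP1 (4.68 ± 0.23, SD, n = 4) and 4.97, 5.05, 5.14 and 4.97 for TFDP2 (5.03 ± 0.08, SD, n = 4). TFDP2 was the steadiest of the 36 genes, with a span of 1.13-fold. SKP2, the F-box protein that sends p27 for degradation, gave 0.05, -0.05, -0.02 and -0.19 (-0.05 ± 0.10, SD, n = 4). SKP2 was the 1 gene of the 36 with its highest value on replicate 1. FBXO5, which encodes EMI1, an inhibitor of the anaphase-promoting complex, gave 3.33, 3.73, 4.12 and 3.54 (3.68 ± 0.34, SD, n = 4), a span of 1.73-fold with replicate 3 highest and replicate 1 lowest under each of the 8 settings.

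Read over all roles, the arrays took unequal places. 24 of the 36 genes were lowest on replicate 1, against 26.9% of all detected genes, and none were lowest on replicate 2 (0 of 36, against 14.8%). Replicate 3 held the highest value of 22 genes (against 48.5%) and replicate 2 that of 13 (against 25.3%). Replicate 1 was highest for 1 gene (against 20.0%) and replicate 4 for 0 (against 6.18%). Replicate 3 was lowest for 5 genes (against 23.2%) and replicate 4 for 7 (against 35.1%). The count lowest on replicate 1 lay between 21 and 31 across the 8 settings, and the count highest on replicate 3 between 13 and 29. The shares of all detected genes were taken under the reported setting only. Counts under the other settings therefore have no share to be read against. The counts of 0 did not hold under each setting, with up to 4 genes lowest on replicate 2 and up to 8 highest on replicate 4, both after normexp and quantile normalization. The mean of the 36 genes deviated by -0.16, 0.14, 0.11 and -0.09 from its 4-array mean, with an SD of 0.15, and the mean of all detected genes by -0.02, 0.03, 0.07 and -0.09, with an SD of 0.07.

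**Figure D2:**
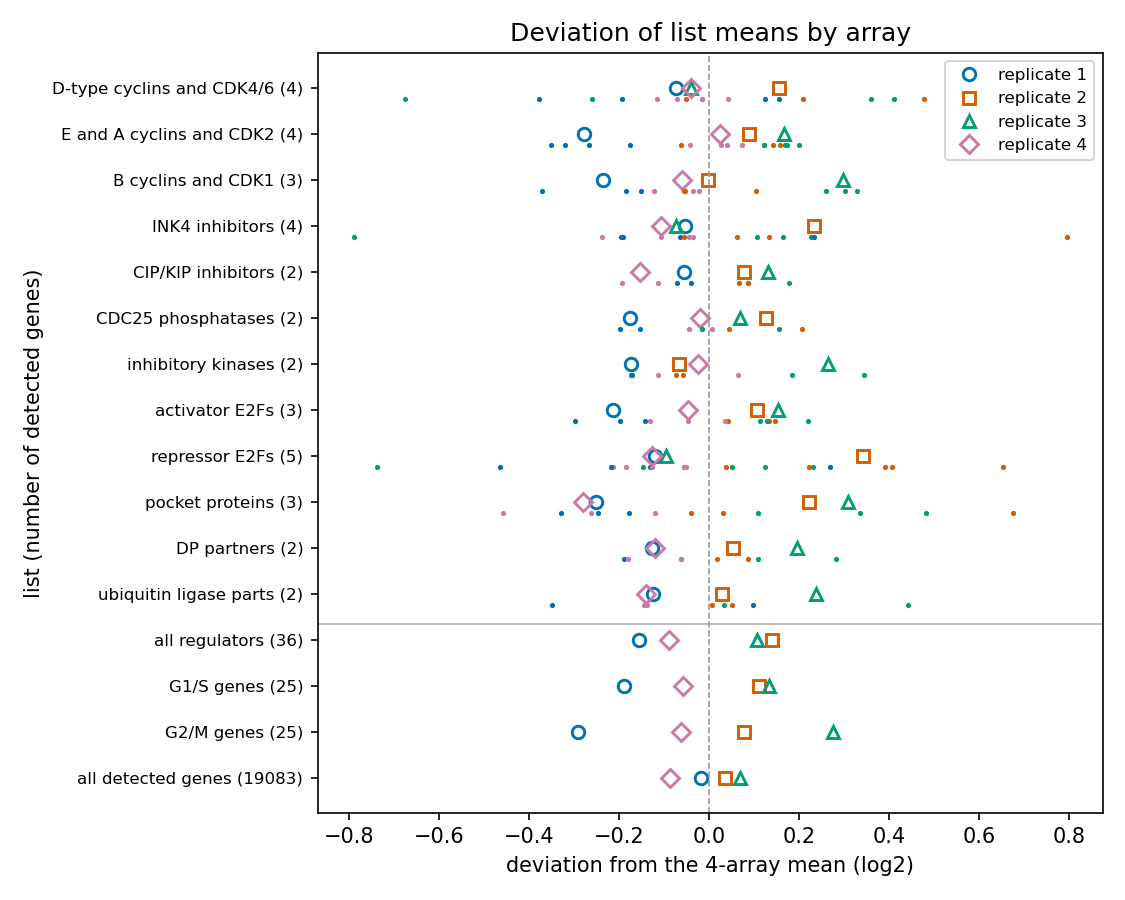
Deviation of the mean over detected genes from its own 4-array mean (x axis, log2) for each role and for 4 wider lists (y axis), with 1 large symbol per replicate and small dots for single genes of a role. Replicate 1 is the lowest symbol for the E and A cyclins with CDK2 at -0.28 and for the B cyclins with CDK1 at -0.24, and replicate 2 is the highest for the repressor E2Fs at 0.34.

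Lists of other genes of the cycle are described by the same counts. Of 25 G1/S genes, which act in DNA replication, 25 were detected, 12 spanned more than 1.4-fold, 20 were lowest on replicate 1 and 15 highest on replicate 3, and their mean deviated by -0.19, 0.11, 0.13 and -0.06. Of 25 G2/M genes, which act in mitosis, 25 were detected, 18 spanned more than 1.4-fold (against 46.4% of all detected genes), 22 were lowest on replicate 1 and 19 highest on replicate 3, and their mean deviated by -0.29, 0.08, 0.28 and -0.06. The mitotic genes had an SD of the mean of 0.24, against 0.15 for the G1/S genes. The cyclin B and CDK1 group followed the same order of arrays as the G2/M list, lowest on replicate 1 and highest on replicate 3, but both lists are read on the same 4 arrays and are not separate observations. Of 20 other core regulators 19 were detected. CCNA1, the germ line A-type cyclin, was well above background on no array, and SKP1, the partner of SKP2 and of other F-box proteins, had replicate 3 apart at 4.71 against 6.47 to 6.70.

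8 of the genes had a probe printed as 10 spots, which sets the noise of spots within an array beside the spread between arrays. Spots marked as outlying were left out, so an array kept 8 to 10 spots for CCNB1 and CDK2 and 9 to 10 for CCNA2. For CCNB1 the SD between arrays was 0.31 and the mean SD of spots within an array 0.09, and for CDK1 they were 0.28 and 0.10. RB1 had 0.25 and 0.12, CCND1 had 0.49 and 0.23, CDKN1B had 0.27 and 0.17, and CDK2 had 0.23 and 0.17. In these 6 the SD between arrays was above the mean SD of spots, although for CDK2 the spots of replicate 4 alone had an SD of 0.24. For E2F1 the values were 0.15 and 0.16, and for CCNA2 0.21 and 0.23. The SD of single spots is not the error of an array's mean, whose standard error over spots was 0.05 to 0.06 for E2F1 and 0.06 to 0.09 for CCNA2. Over all 673 such probes detected on the 4 arrays the medians were 0.20 between arrays and 0.18 within.

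Single spots show which of these differences separated the arrays. The CCND1 spots on replicate 3 ran from 4.84 to 5.41, below the lowest spot on any other array, at 5.55. The 8 CCNB1 spots kept on replicate 3 ran from 5.09 to 5.26, above the highest kept spot elsewhere, at 4.91. The CDK1 spots on replicate 1 reached 4.71, just under the lowest spot on the other arrays, at 4.74. For CDK2, whose replicate 1 stood apart as a mean, the spots of replicate 1 reached 1.38 and overlapped those of replicate 2, from 1.32, and of replicate 4, from 1.15. Spots of 1 array share 1 labelled RNA, so a clean separation concerns that hybridization and does not replicate the culture.

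**Figure D3:**
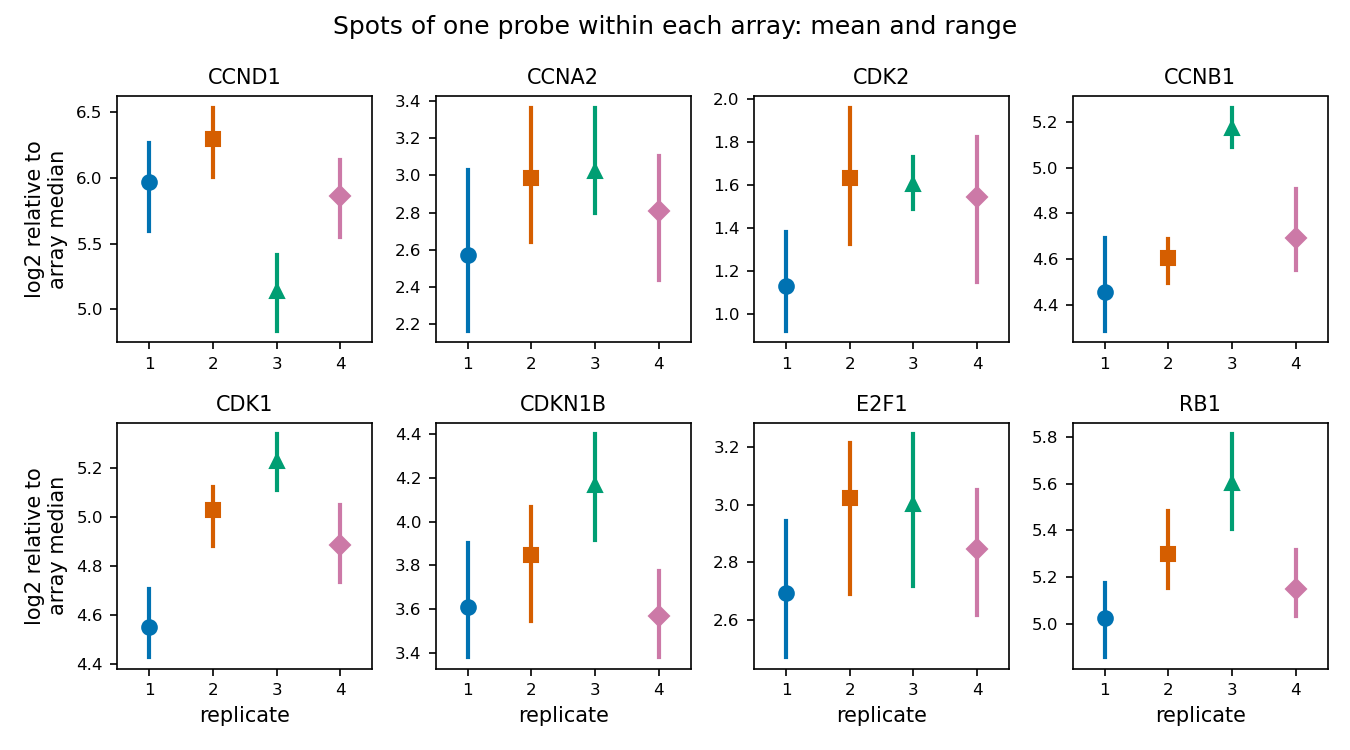
Mean (symbol) and lowest to highest spot (bar) of the probes printed as 10 spots, in log2 relative to the array median (y axis, each panel with its own range) on replicates 1 to 4 (x axis). Spots marked as outlying are left out. CCND1 on replicate 3 and CCNB1 on replicate 3 lie clear of the other arrays, while the bars of E2F1 and CCNA2 overlap throughout.

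A second probe tells how far a gene's place depends on where it was read. 10 of the genes had several probes, 3 of them for E2F6. CCNB1 had its 10-spot probe at 4.46, 4.61, 5.17 and 4.70 (SD 0.31, n = 4) and another at 3.05, 3.16, 3.23 and 3.14 (SD 0.07, n = 4), both lowest on replicate 1 and highest on replicate 3 but with the wider spread in the first. TFDP1 gave 3.35, 3.81, 3.67 and 3.34 by 1 probe and 5.64, 5.73, 6.26 and 5.67 by the other, with the highest value on replicate 2 and on replicate 3. CCNE2 had replicate 1 lowest by both probes. CDK1 and RBL1 each had a probe well above background on no array. The 2 CDKN1B probes, which ran against each other, had 55% and 35% G and C. The first of them and the 10-spot probe of CCNB1, with opposite places of replicate 3, are printed with G and C in capitals.
CDKN1B, chr12:12871119-12871178, lowest on replicate 3: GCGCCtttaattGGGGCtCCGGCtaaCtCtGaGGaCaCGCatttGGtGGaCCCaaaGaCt
CCNB1, chr5:68471363-68473123, 10 spots, highest on replicate 3: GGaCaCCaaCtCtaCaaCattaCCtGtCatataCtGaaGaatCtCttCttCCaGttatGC

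The G and C content of probes moved with the deviation of an array. Across the 45 member probes detected on all 4 arrays, Spearman's rho between G and C content and the deviation was 0.39, 0.22, -0.51 and 0.09 for replicates 1 to 4, and across all 24633 detected probes it was 0.44, 0.10, -0.44 and 0.17. Probes are not independent, and those of 1 array share its RNA and labelling, so these are descriptions. The regulators' probes had a median of 40% G and C, from 35% to 70%, and 20 of the 45 lay from 35% to below 40%. In that range the median deviation on replicate 3 was 0.31 for the regulators and 0.24 for all detected probes, and on replicate 1 it was -0.21 and -0.13. CCND1 (43.3% G and C) lay 0.68 below its own mean on replicate 3, where probes of 40% to below 45% had a median of 0.14. CDKN2B and E2F4 (both 53.3%) lay 0.79 and 0.74 below theirs, where probes of 50% to below 55% had a median of -0.04. CDK4, with the same 53.3%, lay 0.36 above.

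Taking off a smooth trend on G and C content, fitted on all detected probes, left replicate 3 lowest for CCND1, CDKN2B and E2F4, with spans of 2.25-fold, 2.73-fold and 2.39-fold. The same step lowered the SD of 29 of the 36 genes, among them CDK6 from 0.32 to 0.20, FBXO5 from 0.34 to 0.19 and RBL2 from 0.33 to 0.18. It raised the SD of the other 7, among them CCND3 from 0.21 to 0.26, CDK4 from 0.25 to 0.30 and PKMYT1 from 0.16 to 0.19. The part of base composition in any 1 gene's order was not tested beyond these values.

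**Figure D4:**
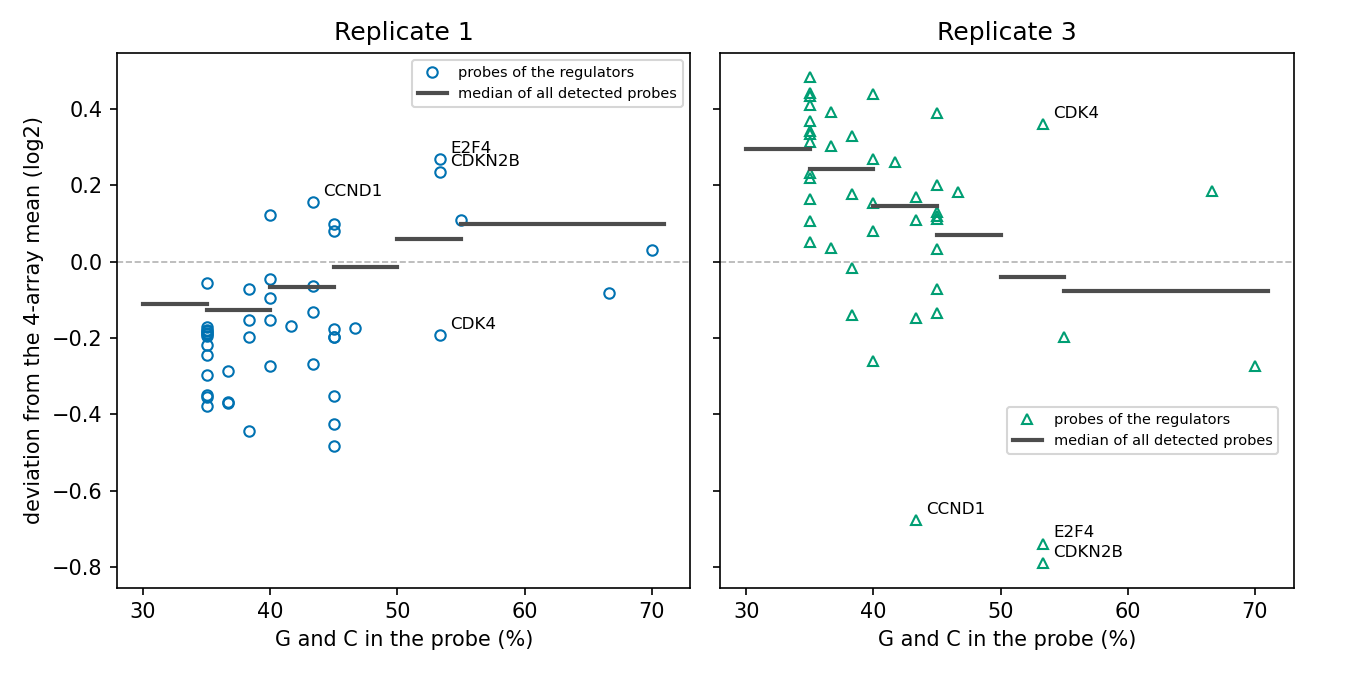
Deviation of each detected probe of the regulators from its 4-array mean (y axis, log2) against the share of G and C in the probe (x axis, %) on replicate 1 and replicate 3, with bars at the median of all detected probes in each range of G and C. The probes follow a rising trend on replicate 1 and a falling one on replicate 3, and CCND1, E2F4 and CDKN2B lie far below the bars on replicate 3.

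Of 5 epithelial markers, 5 were detected on all arrays, where 52.5% of all gene names on the array were. Such markers do not single out 1 epithelial line, so the cell line label itself was not tested. EPCAM lay at 8.70 to 9.04, KRT19 at 11.76 to 11.93 and KRT18 at 10.55 to 10.65. CDH1 lay at 5.52 to 6.22 and KRT8 at 5.32 to 5.46. Of 7 markers of other cell types, 4 were detected (PTPRC, CD3E, CD79A and COL1A1), beside the same 52.5% of all gene names. Another 3 (PECAM1, COL1A2 and ALB) were well above background on no array. The mean of the 4 detected markers deviated by 0.06, 0.24, 0.11 and -0.42. PTPRC, at -1.92, -0.79, -2.06 and -3.51, carried most of this, and without it the mean of the other 3 deviated by 0.04, -0.10, 0.15 and -0.08. Of these 3, CD79A lay at 5.58 to 5.97, COL1A1 at 2.62 to 3.26 and CD3E at -0.48 to -0.14. Their part in the regulators' values was not tested. The arrays had 55.6% to 60.4% of spots well above background, and 0 saturated spots. Spots marked as outlying numbered 2249 on replicate 3 and 514 to 725 on the others.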

How the data were processed

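RNA from 4 bafilomycin A1 cultures was measured on single-colour arrays. Per the file headers and the submitters' processing notes, the authors deposited scanner files from Agilent Feature Extraction 10.7.3.1, not normalized between arrays. The deposited signal of a spot is a linear intensity from which the software had subtracted the background. Each deposited file also holds a p-value per spot against background and other columns, which flag a spot as saturated, as outlying or as clearly above background. Probe coordinates are those of GRCh37, and exon and UTR annotation of that build was not used here.

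Control and outlying spots were left out and spots of a probe averaged. As in the study's methods, log2 was taken, each array was centred on its median and probes of a gene were summarised by their median. Signals at or below 0 were left out on that array. A probe was detected when over 50% of its spots carried the flag for well above background, and a gene when at least 1 probe was detected on all 4 arrays. With 1 group no test between groups was run, and the number of arrays limits the precision. The arrays lay on 1 slide, so slide was not tested as a batch.

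The genes and lists were chosen with earlier results of these data known. All 38 genes are named, and of other lists those well above background on no array or with 1 array apart, at most 5 of each, except 1 gene that is not reported here. As alternatives, processed signals were centred on each array's 75th percentile, normexp (offset 50, limma 3.58.1) was followed by quantile normalization, probes were limited to those well above background or with a value on all arrays, outlying spots were kept, and arrays were centred on the median over all probes. Other detection rules, a 2-fold threshold and leaving out each array were also tried. A quadratic G and C trend and a marker mean without PTPRC were added after seeing the data. The 8 settings named in the text are the reported one, the trend and the first 6 alternatives. They are not separate checks. The limits on probes changed the SD of at most 1 of 36 genes. Keeping outlying spots moved the SD beyond its spread for 0. RefSeq promoters (GRCh38.p14) were matched by symbol for 29 of the 38 genes, the others being CCND1, CCND2, CCNE2, CDK2, CDKN1C, WEE1, PKMYT1, E2F5 and E2F8. A planned comparison of protein sequences was not run. The SD, span and Dixon steps were tested on simulated data. Python 3.11.15, numpy 2.4.6, pandas 2.3.3, scipy 1.17.1, matplotlib 3.10.9 and R 4.3.3 were used.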

Additional observations from a re-analysis of the deposited data

Results flagged for a closer look

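Dixon's ratio was applied to 52 sets of 4 arrays, the detected regulators and the means of their roles and of the other lists, and marked 6. Chance marks about 5% of separate sets, but these sets overlap, since the role means are built from the same genes. Of the single genes 3 of 36 were marked (8.33%), against 8.48% of all detected genes. CDK2 was marked for replicate 1, at 1.13 against 1.56 to 1.64. CDKN2A was marked for replicate 3, at 6.88 against 6.54 to 6.59. E2F6 was marked for replicate 2, at 4.23 against 3.68 to 3.70.

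3 role means were marked, each for replicate 2: the D-type cyclins with CDK4 and CDK6, which lay 0.15 above their 4-array mean, the INK4 inhibitors, 0.23 above, and the repressor E2Fs, 0.34 above. In the first of these the even values of the other arrays are a mean over the low D-type cyclins and high kinases of replicate 3. The INK4 mean was carried mostly by CDKN2B, which lay 0.79 above its own mean on replicate 2. There CDKN2A, CDKN2C and CDKN2D deviated by -0.06, 0.13 and 0.06.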

How the results depend on the processing

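Between 34 and 37 genes were detected under the rules tried, and differences between arrays were tested by Dixon's ratio alone. The median SD of the detected genes, 0.21 as reported, was 0.12 after normexp and quantile normalization, 0.31 with centring on the median over all probes, 0.17 with the G and C trend taken off, and 0.16 to 0.25 with 1 array left out. The count spanning more than 1.4-fold, 16 as reported, was 7, 32 and 9 under these settings, 4 at a 2-fold threshold, and 6 (without replicate 3), 7 (without replicate 1) or 14 to 16 with 1 array left out. The count with 1 array apart, 3 as reported, was 6 with processed signals (75th percentile). Shares of all detected genes were taken under the reported setting only, so counts under other settings have none beside them.

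The SD of the mean over the 36 genes, 0.145 as reported, was 0.0922 with the processed signal, 0.0617 after quantile normalization, 0.235 with centring on all probes, 0.0891 with the G and C trend taken off, and 0.123 to 0.162 with 1 array left out. For the G1/S genes (0.152) it was 0.110, 0.0834, 0.258, 0.103 and 0.104 to 0.180 in the same order. For the G2/M genes (0.238) it was 0.141 after quantile normalization, 0.357 with centring on all probes, 0.175 with the trend taken off, and 0.171 to 0.287. Against the reported setting, centring on all probes shifted the mean of all detected genes by -0.15, -0.08, 0.16 and 0.07 on replicates 1 to 4, and processed signals by 0.03, -0.06, -0.07 and 0.10. The cause of these moves was not tested.

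By gene, the SD moved beyond its spread for 29 of 36 genes after quantile normalization, 27 with centring on all probes, 15 with the trend taken off, 8 with the processed signal, and 3 to 17 with 1 array left out, and for 0 with the 3 other settings. No paired analysis was possible because the untreated samples were not analysed here. Single-spot probes, among them CDKN2B, E2F4 and CCND2, have no measure of noise within an array.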
